A study of Mus musculus with 21 samples.

Results

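The comparison set peritubular myoid cells, labelled PTM, against Sertoli cells of the mouse testis by RNA sequencing, with 3 libraries of each. Its members were all genes at 1 FPKM or more in at least 3 of these 6 libraries, which gave 11582 genes of the 19285 with FPKM values in the deposited table. FPKM is a fragment count scaled to transcript length and to library size, so that levels can be compared between genes. Just inside that limit, the third-highest library stood at 1 FPKM for Dock11, Gnaz and Kcnn4, and just outside at 0.99 FPKM for Abca5, Agbl3 and Ccl8. Both groups were primary cells isolated from the testis, labelled as strain C57BL/6J, grown without treatment at 37°C in DMEM/F12 medium with 10% fetal bovine serum, and used for total RNA. The series holds 21 libraries in 7 groups, and the others (Leydig, germ and 3 kinds of smooth muscle cells) enter here only as reference levels. The labels do not say whether replicates were separate cultures or animals, so every p-value below rests on library-to-library spread alone, and that spread can be technical.

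Peritubular myoid cells form a thin sheath around the seminiferous tubule, contract to move sperm along it, and lay down the basement membrane together with the Sertoli cells they enclose. Sertoli cells nurse the germ cells inside the tubule, seal it with tight junctions, and are known by transcription factors such as Sox9, Wt1 and Dmrt1. Leydig cells and macrophages lie in the interstitium just outside the myoid layer, and Leydig cells make testosterone from cholesterol.

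Inferred depth was 21000000 to 21200000 fragments per library, 11145 to 11536 genes reached 1 FPKM, and the 10 most abundant genes held 5.35 to 6.64% of all FPKM. These 6 libraries were close in each of these measures.

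The labelled cell types were checked against their defining genes first, and both labels were matched only in part. Genes of the smooth muscle apparatus, which define myoid cells, were higher in the libraries labelled Sertoli. Acta2, smooth muscle actin, stood at 1651.66, 1474.23 and 1689.65 FPKM in PTM replicates 1 to 3 and at 3863.48, 4762.32 and 4369.42 FPKM in Sertoli replicates 1 to 3. Myh11, the smooth muscle myosin heavy chain, stood at 51.15, 43.29 and 51.06 FPKM in PTM and at 192.73, 246.76 and 224.5 FPKM in Sertoli. The groups did not overlap for either gene. Sox9, which directs Sertoli cell fate, read 20.78, 61.0 and 28.07 FPKM in PTM and 56.81, 43.05 and 47.26 FPKM in Sertoli, so PTM replicate 2 exceeded every Sertoli library. Wt1, another regulator of the Sertoli lineage, read 22.17, 75.15 and 34.74 FPKM in PTM and 16.7, 54.35 and 20.43 FPKM in Sertoli, with replicate 2 highest in both groups. Leydig libraries held Wt1 at 42.16, 26.68 and 23.47 FPKM, inside the range of both groups, but Sox9 at 1.18, 2.68 and 2.0 FPKM. Amh, the anti-Mullerian hormone of immature Sertoli cells, was below 1 FPKM in all 6 libraries, at 0.23 to 0.62 FPKM. Insl3, a peptide hormone of Leydig cells, read 4368.27, 2039.89 and 4531.62 FPKM in PTM and 7.61, 6.18 and 9.33 FPKM in Sertoli. Both groups therefore carried genes of the other's label, and PTM libraries also carried a Leydig hormone at levels no Sertoli library approached. The groups are called by their labels below. In bulk RNA of this kind, fewer cells of a type and less RNA per cell cannot be told apart.

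**Figure D1:**
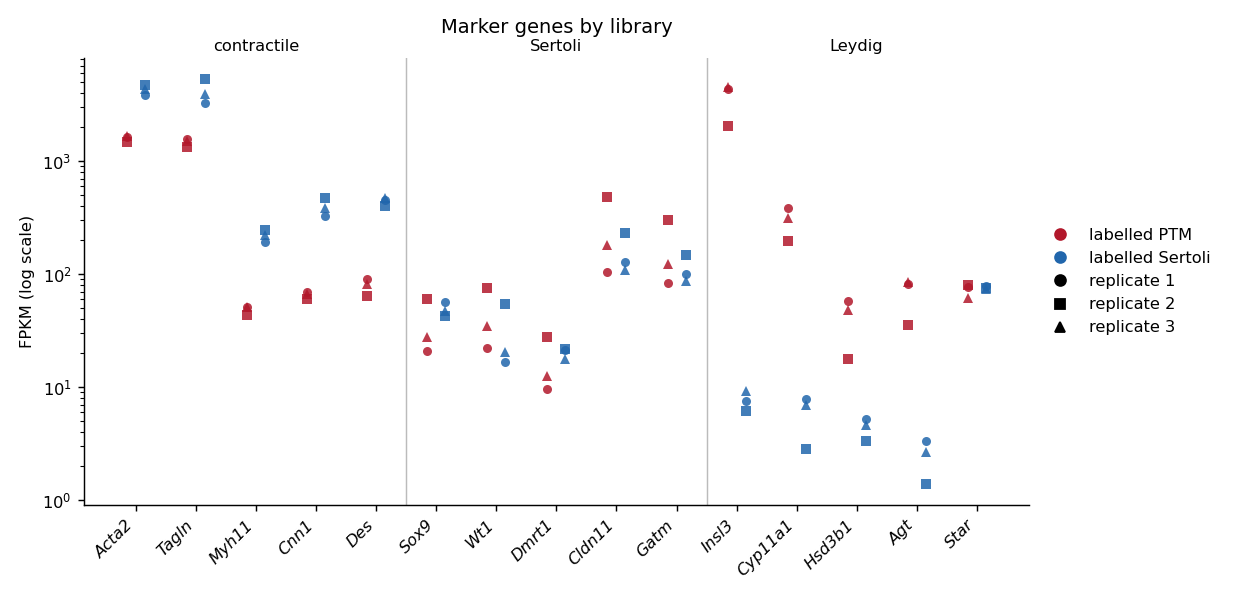
Marker genes of myoid, Sertoli and Leydig cells in each of the 3 PTM and 3 Sertoli libraries. The vertical axis is FPKM on a log scale, each point is 1 library, colour gives the group and shape the replicate. Acta2 to Des lie lower in every PTM library, Insl3 lies far higher in every PTM library, and Sox9, Wt1, Cldn11 and Gatm overlap between the groups.

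A second feature of the libraries was seen in genes that stepped between replicates, most of them named for the largest gaps of Sertoli replicate 2 from its group and Nnt picked after its values were seen. Ifi202b, an interferon-inducible gene known to be lost in C57BL/6J, read 47.23, 120.55 and 66.67 FPKM in PTM and 1.28, 73.68 and 13.17 FPKM in Sertoli. The class I gene H2-L read 292.05, 698.58 and 389.9 FPKM in PTM and 5.67, 503.18 and 87.21 FPKM in Sertoli. Trim30d went the other way, at 3.53, 0.4 and 1.14 FPKM in PTM and 16.58, 0.24 and 12.39 FPKM in Sertoli. Sertoli replicates 1 and 3 thus stood on one side, with Sertoli replicate 2 and the 3 PTM libraries on the other. The ribosomal gene Rpl34 and its near-identical copy Rpl34-ps1 split their reads in the same pattern. Rpl34 held 22.9, 5.33 and 10.3% of the FPKM of the pair in PTM and 97.7, 6.02 and 82.4% in Sertoli, although the pair summed to between 777 and 952 FPKM in each library. In Leydig libraries, which carry the same strain label, the share was 5.25, 96.5 and 5.76%. Nnt, a mitochondrial enzyme gene known to carry a deletion in C57BL/6J, read 15.12, 16.94 and 16.21 FPKM in PTM and 6.81, 13.77 and 8.09 FPKM in Sertoli. With all 6 libraries, none of these genes passed the test between the groups under limma, which is described below. Nnt came nearest at an adjusted p of 0.0756. Without replicate 2 of both groups, Ifi202b, H2-L and Rpl34-ps1 were called higher and Trim30d and Rpl34 lower (adjusted p of 0.00052 to 0.019 by limma). That fit sets Sertoli replicates 1 and 3 against PTM libraries only, so the step and the group cannot be told apart in it. The Sertoli libraries therefore did not share 1 level of genes known to depend on genotype, although their strain label is the same. The cause of these steps was not tested. Replicate 2 of both groups had nearly the same Rpl34 share, so its difference is given below beside the main results.

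**Figure D2:**
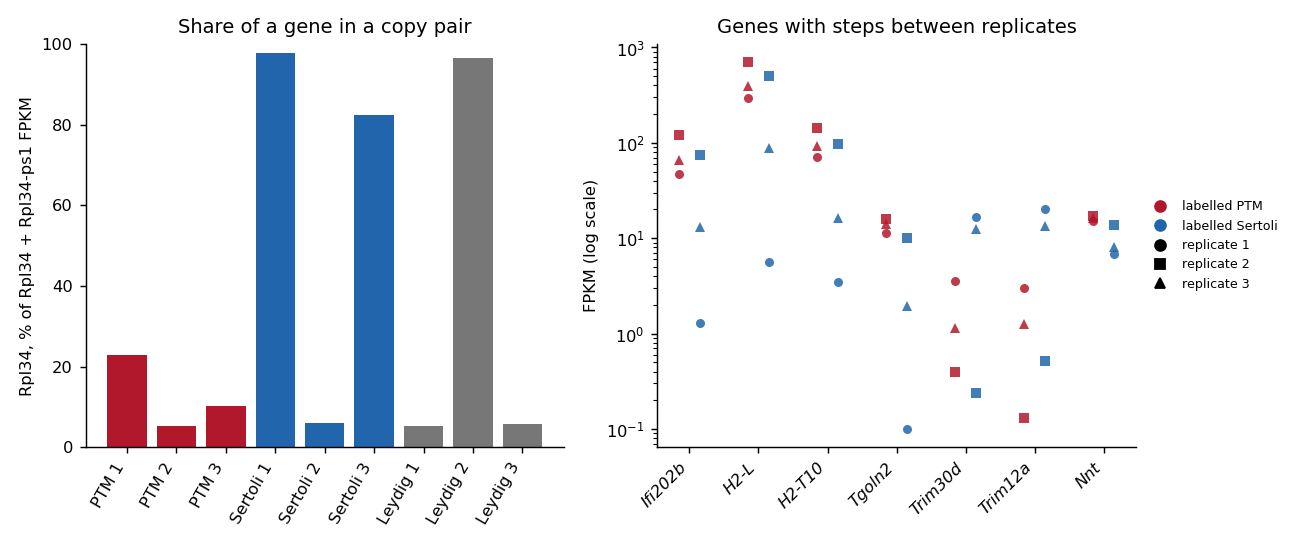
Left, Rpl34 as a percentage of the summed FPKM of Rpl34 and Rpl34-ps1 in 9 libraries, as bars from 0. Right, FPKM on a log axis of 7 genes that step between replicates, 1 point per library of PTM and Sertoli. Sertoli replicates 1 and 3 lie apart from Sertoli replicate 2 and the PTM libraries.

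Across all tested genes, calls were made for 422 of the 11582 genes on the side of PTM (3.64%, called higher) and for 323 on the side of Sertoli (2.79%, called lower), or 6.43% in all. A call required an adjusted p under 0.05 by limma, a linear model with moderated spread across all genes, and a log2 fold change of at least 1 on log2(FPKM + 1), PTM minus Sertoli. The median over all tested genes was 0.09. In 4727 genes (40.8%) the 3 PTM libraries did not overlap the 3 Sertoli libraries, 3004 with PTM above (25.9%) and 1723 with PTM below (14.9%). These shares, and the 3.64 and 2.79% called, are the background for the list counts and the named genes below. Genes called higher had a median of 14.1 FPKM in PTM and 2.54 FPKM in Sertoli, and genes called lower 4.61 and 17.3 FPKM. Of the 422, 101 passed the filter through PTM alone, with every Sertoli library under 1 FPKM, and of the 323, 48 passed through Sertoli alone. The direction of such a gene was fixed by the filter, and the list counts below include genes of this kind. A difference of at least 3 on the log2 scale was reached by 42 genes higher in PTM and 6 lower. At a q-value under 0.05 and a log2 fold change of at least 1, both read from the authors' deposited table (DEGseq), 740 of the tested genes were higher and 541 lower. These include all 422 and all 323, but they come from the same libraries and are no separate support. For Rpl34, whose libraries disagree, the authors' q-value is listed at 0, while the adjusted p by limma was 0.284.

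**Figure D3:**
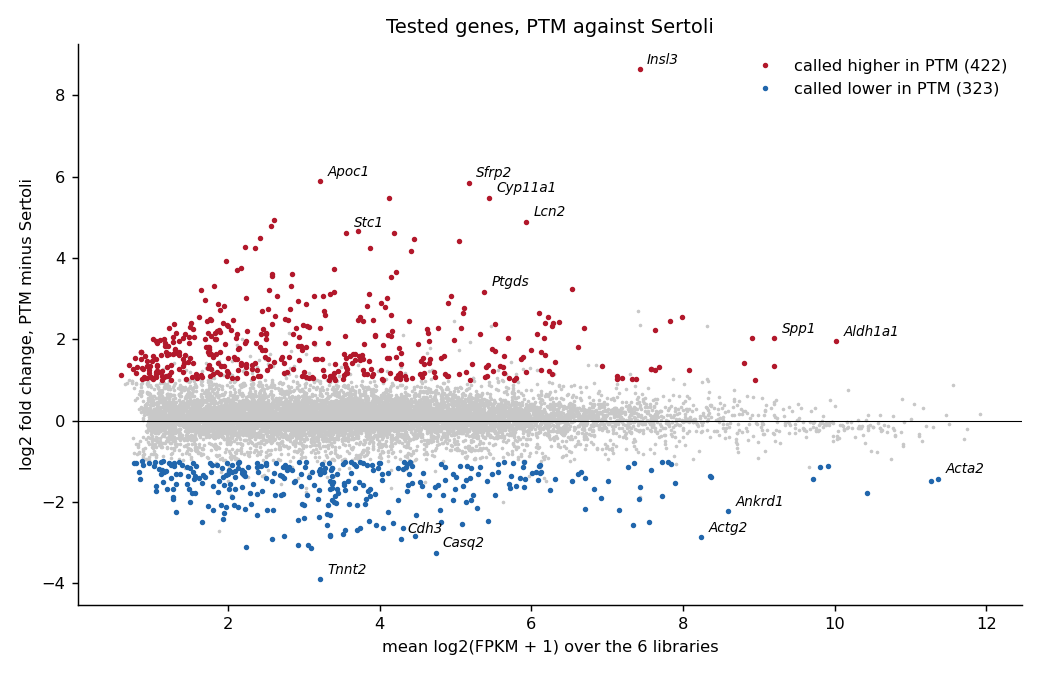
Log2 fold change, PTM minus Sertoli, of the 11582 tested genes against their mean log2(FPKM + 1) over the 6 libraries. Coloured points are the 422 genes called higher and the 323 called lower. The upper side reaches further, to Insl3 at 8.64, than the lower side, to Tnnt2 at -3.90.

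Replicate 2 stood apart in both groups. On log2(FPKM + 1) the Pearson correlation across genes was 0.996 between Sertoli replicates 1 and 3, 0.9556 and 0.9682 between Sertoli replicate 2 and these, and 0.9216 to 0.9474 between PTM and Sertoli libraries. Genes are not independent replicates, and these values carry no test. In Sertoli replicate 2, 481 genes were at least 2-fold above and 232 at least 2-fold below the mean of the other Sertoli libraries, and in PTM replicate 2 the numbers were 230 and 121. Without replicate 2 of either group, 678 genes were called higher and 398 lower, and the replicate 2 libraries had no part in those calls. The Sertoli libraries left in that fit are those that stood apart in the step genes above. Its counts, here and for the lists below, can therefore include such genes. Of the 678, 599 (88.3%) had the same sign in replicate 2 alone and 280 (41.3%) were at least 2-fold apart there. Of all tested genes, 57.1 and 4.2% did so. Of the 398, 358 (89.9%) had the same sign and 214 (53.8%) were at least 2-fold apart, beside 41.9 and 3.8% of all tested genes. The median difference was smaller in replicate 2, at 0.81 for the 678 genes, which had a median of 1.51 in the other replicates, and at -1.08 for the 398, which had -1.45. For 635 genes called higher without it, Sertoli replicate 2 lay a median 37.8% of the way from the other Sertoli libraries to PTM. These shares describe direction and size in 1 pair of libraries and carry no test. Genes called with all 6 libraries were picked partly through replicate 2. Their agreement in replicate 2, given for the lists below, is therefore partly fixed by the call.

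**Figure D4:**
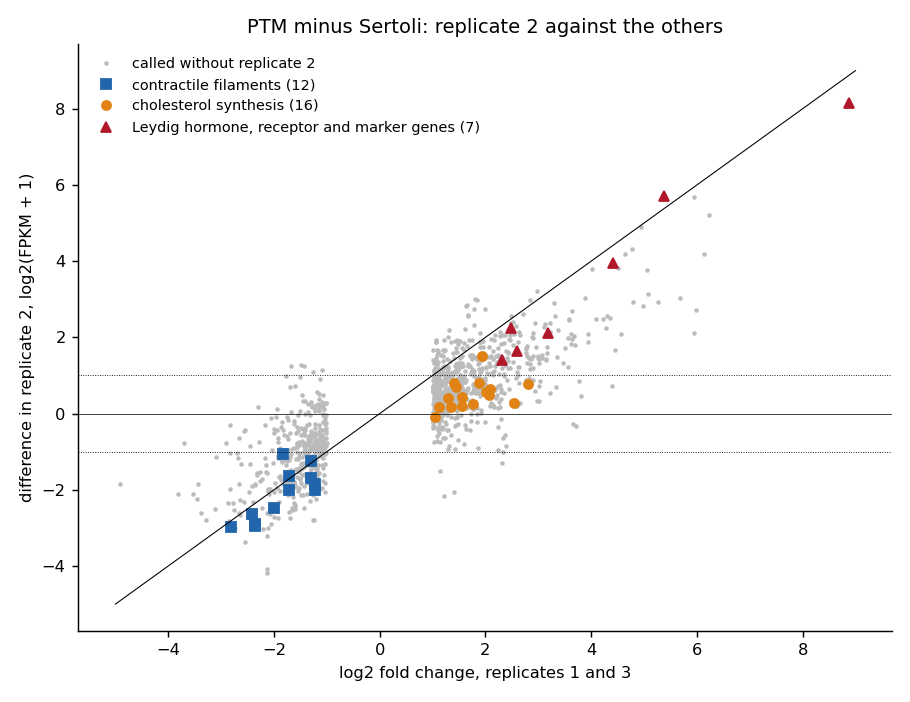
Difference between PTM and Sertoli in replicate 2 alone against the log2 fold change over replicates 1 and 3, on log2(FPKM + 1). All points are genes called without replicate 2, with 12 contractile, 16 cholesterol synthesis and 7 Leydig genes in colour; the diagonal marks equality and dotted lines mark 2-fold. Most called genes keep their sign (88.3 and 89.9%), and the genes higher in PTM lie mostly below the diagonal, nearer to 0.

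Actin, myosin and the proteins that bind them carry out contraction, and every tested gene of the list chosen for them lay lower in PTM. That list also held the potassium channel subunit gene Kcnmb1 and the integrin gene Itga8. Both were called lower, and Itga8 is counted again among the integrins below. Of 22 tested contractile filament genes, 14 were called lower and 0 higher by limma, with a median log2 fold change of -1.35. At an unadjusted p under 0.05 all 22 were lower and 0 higher, with values from -0.45 to -2.86, beside 12.1% of all tested genes lower and 22.2% higher. The summed level was 6690 to 7330 FPKM in PTM and 15000 to 19500 FPKM in Sertoli, while Leydig libraries reached 2780 to 4120 FPKM. In replicate 2 alone all 14 called members were at least 2-fold lower, though replicate 2 had a part in those calls. Without replicate 2 of both groups 12 were called lower, and all 12 were at least 2-fold lower in replicate 2.

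Among the filament proteins, Actg2, the enteric smooth muscle actin, read 114.7, 101.87 and 117.37 FPKM in PTM and 774.63, 806.03 and 867.94 FPKM in Sertoli. It fell by 2.86 ± 0.09 on the log2 scale (SE, n = 3 libraries a group, adjusted p = 6.91e-05 by limma). Acta2 (chromosome 19, 34240336 to 34255373 in mm10, minus strand) fell by 1.43 ± 0.10 (adjusted p = 0.000887) and Myh11 by 2.16 ± 0.12 (adjusted p = 0.000435). Cnn1 (chromosome 9, 22099253 to 22109221, plus strand), calponin, which binds actin and damps myosin, read 70.07, 60.31 and 66.98 FPKM in PTM and 331.06, 470.74 and 384.66 FPKM in Sertoli, a fall of 2.56. Tagln, the actin-binding protein SM22, read 1581.42, 1343.44 and 1503.79 FPKM against 3252.06, 5386.12 and 3955.74 FPKM, but its annotated end overlaps Pcsk7 on the other strand. Des, the intermediate filament desmin, read 91.71, 64.5 and 81.31 FPKM against 454.71, 404.82 and 473.1 FPKM. None of these groups overlapped, as in 14.9% of all tested genes with PTM below. Replicate 2 was highest of the Sertoli libraries for Acta2, Myh11, Cnn1 and Tagln.

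The switch that starts contraction moved with the filaments. Mylk, the kinase that phosphorylates myosin light chain, read 57.41, 63.94 and 64.11 FPKM in PTM and 203.11, 200.96 and 202.15 FPKM in Sertoli. It fell by 1.69 ± 0.08 (adjusted p = 0.000181), with Sertoli libraries almost equal. Its substrate gene Myl9 read 610.19, 566.02 and 621.32 FPKM against 1104.55, 1676.97 and 1262.78 FPKM, a fall of 1.15 ± 0.16 (adjusted p = 0.00563). The general actin-binding genes Vcl, Cnn2, Flna and Cald1 had values from -0.45 to -0.58 and were not called.

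The promoter of Myl9 is shown because smooth muscle genes are known to be switched on through the CArG box, which binds serum response factor. It spans chr2:156775214-156775513 on the plus strand (RefSeq, GRCm38.p6), from 250 bases before the start to 50 after, and the capitals mark its single exact match, whose first base lies at position -161 from the start.
Myl9: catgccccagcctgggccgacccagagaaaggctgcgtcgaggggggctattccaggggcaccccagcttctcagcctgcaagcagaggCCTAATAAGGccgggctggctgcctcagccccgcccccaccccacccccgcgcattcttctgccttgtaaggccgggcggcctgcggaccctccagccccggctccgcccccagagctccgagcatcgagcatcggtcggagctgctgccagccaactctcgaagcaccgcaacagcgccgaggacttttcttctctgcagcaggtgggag
On both strands, 3 of 20 promoters of tested contractile genes held an exact CArG box (15%; those of Myl9, Cnn2 and Vcl), beside 1.63% of all 32851 promoters and 1.39% of the 11922 promoters of tested genes. The match is a description of letters in this window. Cnn2 and Vcl were not called lower.

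Genes usually read in heart and skeletal muscle went partly the same way. Of 7 tested, 3 were called lower and 1 higher, with a median of -0.94. Ankrd1, a stretch-responsive nuclear protein of muscle, read 209.63, 148.09 and 179.97 FPKM in PTM and 735.14, 974.74 and 812.43 FPKM in Sertoli, a fall of 2.23 ± 0.16 (adjusted p = 0.000853). Casq2, the calcium store protein of cardiac muscle, read 7.96, 8.17 and 6.84 FPKM against 120.69, 38.27 and 114.94 FPKM, so Sertoli replicate 2 was the lowest of its group and still above PTM. Tnnt2, cardiac troponin T, read 1.55, 1.14 and 1.51 FPKM against 66.0, 6.79 and 86.3 FPKM. Its fall of 3.90 ± 0.88 was the steepest of the genes called lower (adjusted p = 0.0291), and the call was lost without any 1 library other than Sertoli replicate 2, with an adjusted p of up to 0.0986. Tnnc1, slow troponin C, was higher in PTM at 22.62, 9.98 and 21.53 FPKM against 3.06, 2.0 and 2.52 FPKM.

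Transcription regulators of smooth muscle gave a single call, with 1 of 16 called lower, 0 higher and a median of -0.07 by limma. At an unadjusted p under 0.05, 5 were lower and 1 was higher. The called gene was Heyl, an effector of Notch signalling, at 1.05, 1.26 and 1.33 FPKM in PTM and 5.06, 3.26 and 4.63 FPKM in Sertoli. Of 9 tested receptors for contraction agonists, 3 were called higher and 0 lower, with a median of -0.05 (unadjusted, 4 higher and 3 lower). Adra1d, an adrenaline receptor, read 22.7, 15.61 and 21.84 FPKM in PTM and 0.51, 1.04 and 0.62 FPKM in Sertoli, a rise of 3.61 ± 0.18 (adjusted p = 0.000301). The vasopressin receptor gene Avpr1a read 17.78, 11.34 and 16.56 FPKM against 2.09, 1.11 and 2.45 FPKM. The angiotensin receptor gene Agtr1a read 3.09, 5.03 and 3.22 FPKM against 0.7, 0.31 and 0.63 FPKM. Leydig libraries held Adra1d at 11.9, 7.68 and 15.02 FPKM, Avpr1a at 9.72, 5.0 and 9.46 FPKM, and Agtr1a at 5.02, 5.16 and 13.55 FPKM. All 3 were also called without replicate 2 of both groups, and were at least 2-fold higher in replicate 2 alone.

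Hormone and steroid genes of Leydig cells included Insl3, the steepest rise of all tested genes. Of 10 tested Leydig genes, 7 were called higher and 0 lower by limma, with a median of 2.34. Among the 7, 2 (Prlr and Itih2) passed the filter through PTM alone, so their direction was fixed by the filter. With replicate 2 of both groups left out 7 were called higher, and all 7 were at least 2-fold higher in replicate 2 alone. With all 6 libraries, at an unadjusted p under 0.05, 8 were higher and 0 lower. Their sum was 5280, 2580 and 5340 FPKM in PTM, 211, 177 and 194 FPKM in Sertoli, and 2000 to 8190 FPKM in Leydig libraries. PTM sums thus fell inside the Leydig range, mostly through Insl3.

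Insl3 (chromosome 8, 71689252 to 71690577, plus strand) lies within Jak3 on the same strand and rose by 8.64 ± 0.33 on the log2 scale (adjusted p = 9.17e-05). Cyp11a1, which cuts the cholesterol side chain in the first step of steroid synthesis, read 384.5, 197.31 and 318.08 FPKM in PTM and 7.86, 2.82 and 7.0 FPKM in Sertoli, a rise of 5.49 ± 0.38 (adjusted p = 0.000745). Agt, angiotensinogen, read 82.79, 35.46 and 85.72 FPKM against 3.37, 1.38 and 2.65 FPKM. PTM replicate 2 was the lowest PTM library for all 3 genes and still far above Sertoli. Lhcgr, the receptor for luteinising hormone, read 0.17, 0.17 and 0.44 FPKM in PTM, was listed at 0 in Sertoli, and was no higher in Leydig libraries at 0.19, 0.13 and 0.24 FPKM. Cyp17a1, needed to make androgens, was listed at 0 in 5 libraries and at 0.06 FPKM in PTM replicate 2, and read 0.03, 0.0 and 0.12 FPKM in Leydig libraries. Star, which carries cholesterol into mitochondria, read 77.69, 79.67 and 61.96 FPKM in PTM and 78.23, 75.21 and 74.02 FPKM in Sertoli, a difference of -0.06 ± 0.11 (adjusted p = 0.746).

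Over the whole steroid pathway, 6 of 16 genes were called higher and 0 lower, with a median of 0.88 (unadjusted, 12 higher and 1 lower). Of these 6, 4 were at least 2-fold higher in replicate 2. In the fit without replicate 2 of both groups 9 were called higher, and 5 of the 9 were at least 2-fold higher in replicate 2. Hsd11b1, which regenerates active glucocorticoid, read 36.68, 10.61 and 34.77 FPKM in PTM and 0.71, 1.45 and 1.07 FPKM in Sertoli. Cyp11b1, an enzyme best known from the adrenal cortex, read 28.68, 5.63 and 21.74 FPKM against 0.29, 0.16 and 0.24 FPKM. Cyp11b1 passed the filter through PTM alone. Hsd3b1, which makes progesterone from pregnenolone, read 58.19, 17.77 and 47.95 FPKM against 5.19, 3.34 and 4.62 FPKM. Each of these PTM levels was lowest in replicate 2. The call of Fdxr, which feeds electrons to mitochondrial enzymes, was lost without PTM replicate 1 or 3 or Sertoli replicate 1 or 3 (adjusted p up to 0.0743).

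The kallikrein family of serine proteases, several of which are known from Leydig cells, had 24 genes in the table, of which 6 were tested and called higher. All 6 passed the filter through PTM alone, with every Sertoli library under 1 FPKM, so that they differed was fixed by the filter, and the rest of the family was not tested. Klk1b24 read 32.59, 28.92 and 36.59 FPKM in PTM and 0.12, 0.0 and 0.2 FPKM in Sertoli. Klk1b21 read 23.85, 21.85 and 28.41 FPKM against 0.06, 0.24 and 0.1 FPKM. Klk1b27 read 14.82, 12.91 and 15.57 FPKM and was listed at 0 in every Sertoli library. The Klk1b genes are near-identical copies, so the split of reads among them is uncertain. The sum over all 24 genes, 70.0 to 88.6 FPKM in PTM against 0.51 to 1.03 FPKM in Sertoli, does not depend on that split. It was 95.0 to 460 FPKM in Leydig libraries. Klk8, called higher but not a Klk1b gene, read 2.2, 1.62 and 1.1 FPKM in PTM and 0.42, 0.12 and 0.3 FPKM in Sertoli. Leydig libraries held it at 0.24, 0.68 and 0.25 FPKM.

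Cholesterol, the raw material of steroids, is made by a chain of enzymes from acetyl-CoA, and 10 of its 23 genes passed the test as higher in PTM and 0 as lower, with a median of 1.11 (unadjusted, 18 higher and 0 lower). Hmgcs1, at the entry of the chain, read 52.79, 47.89 and 56.73 FPKM in PTM and 19.4, 27.29 and 20.99 FPKM in Sertoli, a rise of 1.19 ± 0.14 (adjusted p = 0.00381). Dhcr7, the enzyme of the last step in one branch, read 15.05, 13.2 and 14.69 FPKM against 2.93, 7.09 and 3.79 FPKM. Fdps, which joins isoprene units, read 134.26, 54.99 and 128.02 FPKM against 31.58, 36.73 and 31.99 FPKM. The groups did not overlap in any of these 3 genes, as in 25.9% of all tested genes with PTM above. The size of the difference rested on replicates 1 and 3. The median over the 23 genes was 1.42 in replicate 1, 0.43 in replicate 2 and 1.39 in replicate 3, and 0 of the 10 called genes were 2-fold apart in replicate 2 alone. Without replicate 2 of both groups 16 genes were called, whereas 1 was called without PTM replicate 1, PTM replicate 3 or Sertoli replicate 3 and 2 were without Sertoli replicate 1. With the replicate number as a block, the calls of Acat2 and Nsdhl were lost at adjusted p = 0.0797 and 0.0536.

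The promoter of Hmgcs1 is shown because the pathway is known to be driven by sterol response element binding proteins (SREBP). It spans chr13:119690101-119690400 on the plus strand (RefSeq, GRCm38.p6), and the capitals mark the single match to TCACNCCAC, with its first base at position -137 from the start.
Hmgcs1: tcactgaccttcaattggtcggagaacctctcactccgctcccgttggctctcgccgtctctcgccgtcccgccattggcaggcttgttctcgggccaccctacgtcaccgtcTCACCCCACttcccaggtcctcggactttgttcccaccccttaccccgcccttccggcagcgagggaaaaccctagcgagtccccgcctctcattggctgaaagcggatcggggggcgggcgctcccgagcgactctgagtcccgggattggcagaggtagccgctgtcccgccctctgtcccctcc
That motif, searched on both strands, was in 1 of 21 promoters of the cholesterol genes (4.76%) and in 1.24% of all promoters. CAAGGTCA, a motif of the steroidogenic factor NR5A1, was in 1 of 21 (that of Dhcr7), in 0 of 11 promoters of steroid genes and in 1.56% of all promoters.

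Apolipoproteins led the genes that carry and export cholesterol, 2 of 16 of which were called higher and 0 lower, with a median of 0.54 (unadjusted, 9 higher and 1 lower). Apoc1 (chromosome 7, 19689480 to 19692659, minus strand) read 70.94, 56.2 and 87.13 FPKM in PTM and 0.0, 0.54 and 0.13 FPKM in Sertoli, a rise of 5.89 ± 0.22 (adjusted p = 9.11e-05). It passed the filter through PTM alone. Apoe read 86.3, 60.8 and 85.63 FPKM against 25.8, 34.19 and 31.36 FPKM. Without PTM replicate 2 or Sertoli replicate 2 the number called was 4.

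**Figure D5:**
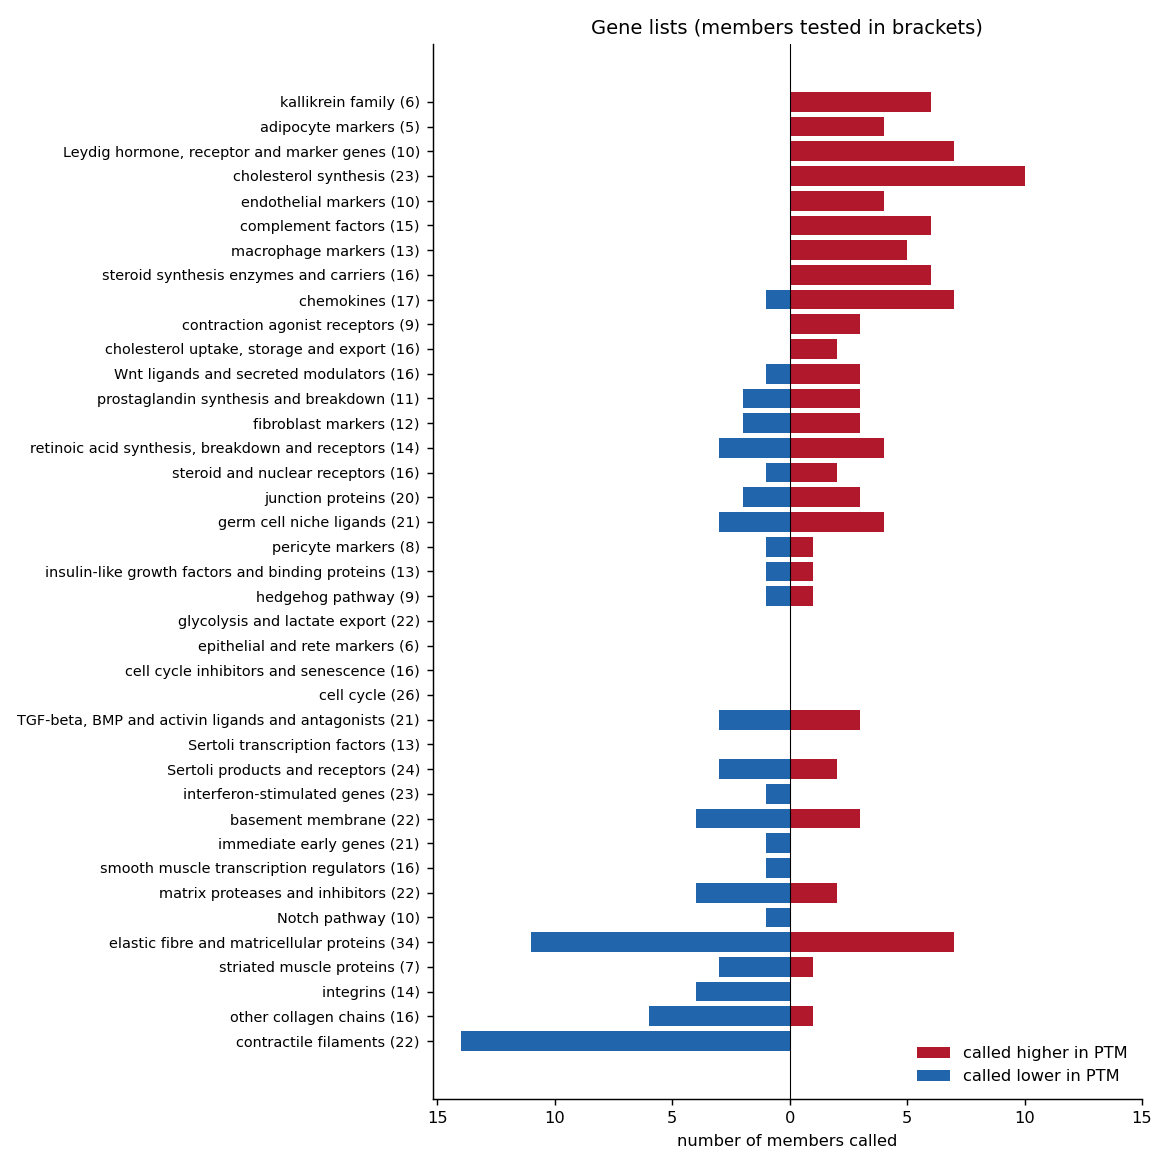
Members called higher (right) or lower (left) in PTM for each gene list, with the number tested in brackets. Contractile filaments reach 14 lower with 0 higher, and cholesterol synthesis reaches 10 higher with 0 lower.

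Genes that name the Sertoli cell gave no call among the transcription factors and few among the products. Of 13 tested Sertoli transcription factors, 0 were called by limma in either direction, with a median of -0.4, and at an unadjusted p under 0.05, 3 were higher and 6 lower, beside 22.2 and 12.1% of all tested genes. With the replicate block 1 of them, Gata1, was called higher, and without replicate 2 of both groups Gata1 was called higher and Sox9 and Hes1 lower. Dmrt1, which keeps the male fate of Sertoli cells, read 9.65, 27.68 and 12.58 FPKM in PTM and 21.32, 21.74 and 17.89 FPKM in Sertoli, with PTM replicate 2 the highest of all. Gata4, shared by Sertoli, Leydig and myoid cells, read 56.51, 58.63 and 57.18 FPKM against 70.15, 90.38 and 69.66 FPKM (log2 difference -0.40 ± 0.12, adjusted p = 0.0631). For Sox9 the difference was -0.55 ± 0.37 (adjusted p = 0.344).

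Sertoli products and receptors were mixed, with 2 of 24 called higher, 3 lower and a median of 0. Their sum was 2150, 4510 and 2620 FPKM in PTM and 2930, 3630 and 2550 FPKM in Sertoli, and replicate 2 was highest in each group. Cldn11, the claudin of the blood-testis barrier, read 105.07, 481.09 and 180.03 FPKM in PTM and 129.21, 233.15 and 110.2 FPKM in Sertoli. Gatm, a creatine synthesis enzyme of Sertoli cells, read 83.0, 301.52 and 124.08 FPKM against 100.22, 147.57 and 87.75 FPKM. Both groups overlapped for these genes and for Fshr, the receptor for follicle-stimulating hormone, which was at 0.66 to 4.2 FPKM in PTM and 1.15 to 2.66 FPKM in Sertoli.

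Called members of that list lay on both sides. Kitl, the ligand that sustains spermatogonia, read 41.76, 61.39 and 46.21 FPKM in PTM and 15.38, 16.68 and 14.93 FPKM in Sertoli, a rise of 1.59 ± 0.15 (adjusted p = 0.00183). Gstm6, a glutathione transferase, read 16.58, 23.94 and 13.49 FPKM against 119.83, 50.31 and 86.24 FPKM. Ptgds, which makes prostaglandin D2, read 170.22, 67.79 and 161.88 FPKM against 5.17, 40.55 and 9.33 FPKM. Its call was lost with the replicate block (adjusted p = 0.0671) and without any 1 library other than the replicate 2 libraries (up to 0.117). Mro and Aard were called lower, and their calls were lost likewise on leaving out single libraries, at adjusted p of up to 0.121 and 0.146, and that of Aard also with the block (0.0504).

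Junction genes had 3 of 20 called higher and 2 lower, with a median of 0.42, and 5 were higher without Sertoli replicate 2. Gja1, the gap junction protein connexin 43, read 18.09, 10.94 and 18.42 FPKM in PTM and 2.52, 2.43 and 2.22 FPKM in Sertoli, a rise of 2.28 ± 0.20 (adjusted p = 0.00142). Gja4, connexin 37, read 3.15, 4.23 and 3.13 FPKM against 0.38, 0.71 and 0.64 FPKM. Cdh3, P-cadherin of cell contacts, read 4.63, 9.45 and 5.03 FPKM against 63.86, 36.58 and 59.47 FPKM, a fall of 2.90 ± 0.31 (adjusted p = 0.00254). The 5 called junction genes included Esam higher and Gjc1 lower, and the call of Gjc1 was lost without PTM replicate 2, Sertoli replicate 2 or Sertoli replicate 3 because its fold change of -1.01 lay at the limit.

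The extracellular matrix changed in both directions and by chain. Of 16 tested interstitial collagen genes, 6 were called lower and 1 higher, with a median of -0.73, and 5 of the 6 were at least 2-fold lower in replicate 2. Leaving out replicate 2 of both groups, 7 were called lower, and 5 of the 7 were at least 2-fold lower in replicate 2. All 3 classic chains of collagen VI, a beaded filament around cells, were among the 6. Col6a2 (chromosome 10, 76595756 to 76623404, minus strand) read 10.01, 4.95 and 7.74 FPKM in PTM and 54.47, 60.9 and 58.62 FPKM in Sertoli, a fall of 2.83 ± 0.22 (adjusted p = 0.00107). Col6a1 read 15.01, 6.01 and 13.4 FPKM against 61.64, 64.34 and 70.62 FPKM. Col6a3 read 7.88, 3.55 and 7.07 FPKM against 39.2, 13.96 and 37.85 FPKM. Col1a1, the main fibrillar chain, read 210.36, 184.76 and 215.59 FPKM against 648.03, 369.83 and 608.47 FPKM, with replicate 2 lowest in both groups. The calls of Col6a3 and Col1a2 were lost without any 1 library other than Sertoli replicate 2, at adjusted p of up to 0.1 and 0.0877. Col11a1, which sets fibril width, was higher at 8.59, 9.47 and 9.56 FPKM against 1.93, 0.31 and 1.81 FPKM, and 2 chains were higher without PTM replicate 2.

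The basement membrane, to which both cell types contribute, had 3 of 22 genes called higher and 4 lower, with a median of -0.32. The collagen IV chains Col4a3 and Col4a4, which are transcribed from a shared promoter region, fell together. Col4a3 read 1.36, 2.83 and 1.6 FPKM in PTM and 28.25, 15.57 and 27.1 FPKM in Sertoli, a fall of 3.06 ± 0.28 (adjusted p = 0.00159). Col4a4 read 1.93, 3.14 and 2.49 FPKM against 19.27, 13.99 and 19.39 FPKM. Col18a1, the source of endostatin, was higher in PTM at 26.38, 15.63 and 22.5 FPKM against 5.16, 7.69 and 5.55 FPKM.

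Elastic fibre and matricellular genes made up the longest list, with 7 of 34 called higher, 11 lower and a median of -0.58. These are 20.6 and 32.4%, beside 3.64 and 2.79% of all tested genes. The lower ones included microfibril and latent TGF-beta binding proteins. Mfap2, a microfibril protein, read 1.86, 0.93 and 1.81 FPKM in PTM and 21.47, 12.61 and 17.49 FPKM in Sertoli. Ltbp2 read 32.25, 34.97 and 32.0 FPKM against 100.09, 106.44 and 103.93 FPKM, a fall of 1.62 ± 0.08 (adjusted p = 0.000207). Tnc, tenascin C, read 49.1, 30.5 and 46.29 FPKM against 131.31, 137.57 and 139.91 FPKM. In each the groups did not overlap, as in 14.9% of all tested genes with PTM below. Of the 11 lower genes, 9 were at least 2-fold lower in replicate 2. Called without replicate 2 of both groups were 13 lower genes, and 9 of the 13 were at least 2-fold lower in replicate 2.

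On the higher side, Spp1, osteopontin, read 1581.22, 712.89 and 1493.68 FPKM in PTM and 246.93, 405.04 and 243.77 FPKM in Sertoli, so replicate 2 of the groups lay closest together. Fbln2, a fibulin, read 279.06, 171.0 and 241.65 FPKM against 49.26, 40.05 and 48.94 FPKM. Loxl2, which crosslinks collagen, read 53.19, 55.05 and 50.14 FPKM against 8.85, 12.44 and 9.91 FPKM, a rise of 2.25 ± 0.13 (adjusted p = 0.000491). Its paralog Loxl1, needed for elastic fibres, went the other way at 34.48, 20.04 and 33.66 FPKM against 83.75, 102.25 and 90.04 FPKM. The number called higher was 4 without Sertoli replicate 3.

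Integrins, the receptors for matrix, had 4 of 14 called lower and 0 higher, with a median of -0.81 (unadjusted, 9 lower and 1 higher). All 4 were at least 2-fold lower in replicate 2, which had a part in those calls. When replicate 2 of both groups was left out 5 were called lower, and 3 of the 5 were at least 2-fold lower in replicate 2. Itga1, a collagen receptor chain, read 3.77, 5.09 and 4.13 FPKM in PTM and 21.61, 16.71 and 24.04 FPKM in Sertoli. Itga3, a laminin receptor chain, read 14.82, 10.27 and 12.98 FPKM against 41.67, 31.31 and 49.02 FPKM. The calls of Itga8 and Itga9 were lost on leaving out single libraries, which left 2 without PTM replicate 1, 2 or 3 or Sertoli replicate 3. Matrix proteases and their inhibitors had 2 of 22 called higher and 4 lower, with a median of -0.13, and 1 was higher without PTM replicate 3, Sertoli replicate 1 or Sertoli replicate 3, where the call of Mmp12 was lost (adjusted p up to 0.0724). Mmp2, a gelatinase, read 62.74, 15.36 and 53.79 FPKM in PTM and 1.27, 2.87 and 1.74 FPKM in Sertoli. Mmp14, the membrane protease that activates it, read 115.89, 87.73 and 109.5 FPKM against 202.85, 264.16 and 225.08 FPKM. The enzyme and its activator thus differed in opposite directions.

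Secreted signals also divided. Among Wnt ligands and modulators 3 of 16 were called higher and 1 lower, with a median of 0.44, and the number higher was 6 without Sertoli replicate 2. Sfrp2 (chromosome 3, 83766321 to 83774314, plus strand), a secreted Wnt antagonist, read 427.31, 130.48 and 363.67 FPKM in PTM and 5.73, 1.54 and 5.2 FPKM in Sertoli, a rise of 5.85 ± 0.56 (adjusted p = 0.00183). Its relative Sfrp1 was called lower at 1.71, 2.41 and 2.09 FPKM against 4.53, 6.17 and 5.31 FPKM, and lost that call without PTM replicate 1 or Sertoli replicate 2. Wnt2b, a ligand, read 2.2, 1.67 and 2.13 FPKM against 0.22, 0.29 and 0.24 FPKM.

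TGF-beta, BMP and activin genes had 3 of 21 called higher and 3 lower, with a median of 0.03. Bmp2 read 6.77, 4.88 and 6.8 FPKM in PTM and 0.62, 0.53 and 0.86 FPKM in Sertoli, while its relative Bmp4 was lower at 12.9, 13.92 and 14.04 FPKM against 33.11, 23.54 and 37.28 FPKM. The call of Bmp4 was lost without Sertoli replicate 3, where its difference fell under the limit. The antagonists were split as well. Fst, which traps activin, read 10.83, 8.44 and 11.85 FPKM against 1.03, 2.71 and 1.29 FPKM. Chrdl1, which traps BMPs, read 0.61, 0.81 and 0.84 FPKM against 5.41, 10.21 and 7.24 FPKM. Tgfb3 was among the steadier genes at 121.43, 131.25 and 119.76 FPKM against 261.61, 297.12 and 311.83 FPKM, a fall of 1.22 ± 0.09 (adjusted p = 0.00102). The number called lower was 5 without Sertoli replicate 2.

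Ligands of the germ cell niche had 4 of 21 called higher and 3 lower, with a median of 0.02. Igf1, insulin-like growth factor 1, read 2.47, 3.64 and 2.71 FPKM in PTM and 14.94, 17.24 and 14.36 FPKM in Sertoli, a fall of 2.07 ± 0.14 (adjusted p = 0.000737). Ereg, an EGF receptor ligand, read 20.17, 15.73 and 17.48 FPKM against 84.23, 48.5 and 87.71 FPKM. Fgf2, a mitogen of germline stem cells, read 3.51, 3.05 and 2.64 FPKM against 11.13, 6.47 and 10.98 FPKM. Adm, the vasodilator adrenomedullin, and Il6, an inflammatory cytokine, were among the higher ones with Kitl. The number called higher was 2 without PTM replicate 3 or Sertoli replicate 3. In the hedgehog pathway 1 of 9 was higher and 1 lower, with a median of -0.33. The higher one, Cdon, lost its call without PTM replicate 1 or 3 or Sertoli replicate 1 or 3 (adjusted p up to 0.0719). Gli2, a transcription factor that myoid and Leydig precursors use to read hedgehog signals, read 0.71, 0.66 and 0.6 FPKM in PTM and 2.46, 2.71 and 2.54 FPKM in Sertoli.

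Retinoic acid, made from vitamin A, drives spermatogonia to differentiate, and both of its called synthesis genes were higher in PTM. Aldh1a1 (chromosome 19, 20601982 to 20643462, plus strand), known as the main retinaldehyde dehydrogenase of Sertoli cells, read 1964.49, 2158.97 and 2020.52 FPKM in PTM and 491.5, 638.61 and 463.5 FPKM in Sertoli, a rise of 1.96 ± 0.13 (adjusted p = 0.000713). Aldh1a2, its paralog known from germ cells in the testis, read 108.56, 60.25 and 109.74 FPKM against 2.51, 6.98 and 3.48 FPKM, a rise of 4.18 ± 0.36 (adjusted p = 0.00141). Cyp26b1, which breaks retinoic acid down and is known from the myoid layer and fetal Sertoli cells, read 2.29, 1.9 and 1.53 FPKM against 9.17, 3.41 and 8.28 FPKM. Rbp4, the carrier of vitamin A, read 3.12, 2.42 and 2.95 FPKM against 13.94, 61.32 and 20.06 FPKM, with Sertoli replicate 2 far above its group and the call lost without PTM replicate 3 (adjusted p = 0.0593). In all, 4 of 14 were called higher and 3 lower, with a median of -0.06. The number lower fell to 0 without PTM replicate 3 and to 1 without PTM replicate 1, PTM replicate 2 or Sertoli replicate 3, and the number higher was 2 without any 1 library other than the replicate 2 libraries. The dehydrogenases were called in each of those fits.

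Prostaglandin genes had 3 of 11 called higher and 2 lower, with a median of 0.5. The call of Pla2g4a as lower was lost without any 1 library other than Sertoli replicate 2 (adjusted p up to 0.115). Hpgd (chromosome 8, 56294552 to 56321046, plus strand), which inactivates prostaglandins, read 97.61, 74.5 and 98.75 FPKM in PTM and 1.77, 4.56 and 2.24 FPKM in Sertoli, a rise of 4.62 ± 0.27 (adjusted p = 0.000514). Ptges, which makes prostaglandin E2, read 18.42, 31.75 and 21.86 FPKM against 2.62, 4.31 and 1.83 FPKM. Ptgis, the prostacyclin synthase of smooth muscle and vessel walls, was lower at 108.23, 64.36 and 93.24 FPKM against 299.39, 367.37 and 334.58 FPKM, a fall of 1.93 ± 0.20 (adjusted p = 0.00229). Among nuclear receptors 2 of 16 were higher and 1 lower, with a median of -0.03. The call of Nr1h4 as higher was lost without PTM replicate 1, PTM replicate 3 or Sertoli replicate 3 (adjusted p up to 0.0873), and 2 were lower without Sertoli replicate 2. Esr1, oestrogen receptor alpha, read 3.76, 2.08 and 3.41 FPKM in PTM and 0.21, 0.47 and 0.25 FPKM in Sertoli. Nr4a1, an immediate early receptor, was the lower one at 24.56, 16.83 and 19.98 FPKM against 53.63, 55.11 and 62.44 FPKM.

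Chemokines, which draw immune cells into tissue, were mostly higher in PTM where called. Of 17 tested chemokine genes, 7 were called higher and 1 lower, with a median of 0.94, and all 8 were at least 2-fold apart the same way in replicate 2. Calls without replicate 2 of both groups numbered 9 higher and 1 lower, of which 8 and 1 were at least 2-fold apart there. Cxcl14 read 607.38, 414.46 and 590.37 FPKM in PTM and 121.33, 78.66 and 93.84 FPKM in Sertoli. Cxcl5, a neutrophil attractant, read 50.92, 9.29 and 56.52 FPKM against 0.03, 0.26 and 0.1 FPKM. Cxcl5 passed the filter through PTM alone. Ccl2, the main monocyte attractant, read 190.77, 137.43 and 221.6 FPKM against 20.68, 51.0 and 24.45 FPKM. The exception was Cx3cl1, fractalkine, which was lower in PTM at 4.85, 6.75 and 4.67 FPKM against 39.9, 29.8 and 40.62 FPKM.

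Complement factors followed, with 6 of 15 called higher, 0 lower and a median of 1.23 (unadjusted, 7 higher and 1 lower). With the replicate block 9 were called higher. Over all 19 genes of the list, the sum was 444 to 455 FPKM in PTM and 371 to 389 FPKM in Sertoli. In Leydig libraries it was 2060 to 4040 FPKM, above both groups. C3, the central factor, read 80.19, 37.34 and 70.09 FPKM in PTM and 1.66, 11.12 and 3.45 FPKM in Sertoli, and its call was lost without PTM replicate 3 or Sertoli replicate 3 (adjusted p up to 0.0517). Cfb, of the alternative pathway, read 18.48, 14.56 and 19.56 FPKM against 1.52, 5.3 and 2.09 FPKM. Lcn2, Ptx3 and Hp, from no list, were among the 15 largest rises that passed the naming rule. Lcn2, the iron-binding lipocalin, read 432.07, 206.15 and 414.33 FPKM against 4.68, 30.65 and 6.8 FPKM. Ptx3, a long pentraxin, read 179.67, 104.93 and 187.37 FPKM against 3.91, 11.11 and 5.14 FPKM, and Hp, haptoglobin, read 22.02, 14.94 and 22.88 FPKM against 0.08, 0.12 and 0.0 FPKM. Leydig libraries held Lcn2 at 823.81, 220.19 and 1953.02 FPKM, Ptx3 at 228.29, 85.82 and 518.09 FPKM, and Hp at 166.4, 51.31 and 420.75 FPKM.

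Markers of macrophages were also higher in PTM where called. Of 13 tested, 5 were called higher and 0 lower, with a median of 1.64 (unadjusted, 8 higher and 0 lower). The summed level of the 18 marker genes was 143, 242 and 163 FPKM in PTM and 16.3, 65.3 and 20.8 FPKM in Sertoli, and 22.4 to 365 FPKM in Leydig libraries. Cd14, a receptor for endotoxin, read 29.51, 12.26 and 27.17 FPKM in PTM and 0.73, 2.1 and 1.12 FPKM in Sertoli, and Cd68, a lysosomal marker, read 27.41, 47.14 and 31.53 FPKM against 3.07, 9.99 and 4.87 FPKM. Within PTM, replicate 2 was thus lowest for Cd14, but highest for Cd68 and for the other called markers Lyz2, Ctss and Tyrobp. The defining markers Adgre1, Ptprc, Itgam, Cx3cr1 and Aif1 were below the filter, and no macrophage marker was listed at 0 in all 6 libraries. Replicate 2 had the highest sum in each group, unlike the chemokines, which summed to 1150, 869 and 1190 FPKM in PTM and to 414, 356 and 363 FPKM in Sertoli. In Leydig libraries the chemokines summed to 1290 to 2550 FPKM. The number called higher was 9 with the replicate block, 10 without Sertoli replicate 2, and 3 without PTM replicate 3 or Sertoli replicate 3. The part of macrophages in the immune genes was not tested.

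Markers of other cells that the isolation could carry also differed. Endothelial markers had 4 of 10 called higher and 0 lower, with a median of 1.07, and summed to 127 to 176 FPKM in PTM and 91.3 to 98.7 FPKM in Sertoli (unadjusted, 7 higher and 0 lower). Adipocyte markers had 4 of 5 called higher and 0 lower, with a median of 1.83, and summed to 68.8 to 83.1 FPKM against 15.1 to 30.1 FPKM (unadjusted, 4 higher and 0 lower). Of the 10 listed, only 5 passed the filter, and the calls were those of Fabp4, Cd36, Cebpa and Lpl. Cd36 passed through PTM alone. In Leydig libraries the adipocyte list summed to 42.0 to 126 FPKM. Fibroblast markers had 3 of 12 higher and 2 lower, and pericyte markers 1 of 8 higher and 1 lower. Fibroblast markers had 1 higher without PTM replicate 1 or 3 or Sertoli replicate 1 or 3 and 1 lower without PTM replicate 2, the call of Mfap5 was also lost with the replicate block (adjusted p = 0.0631), and pericyte markers had 2 higher without Sertoli replicate 2. Ly6a, known as Sca-1 on stromal cells, read 390.0, 486.29 and 418.47 FPKM in PTM and 90.68, 108.61 and 74.8 FPKM in Sertoli. Rgs5, which marks pericytes, read 2.91, 3.65 and 2.79 FPKM against 0.31, 0.24 and 0.39 FPKM, and Mcam, on the same cells, read 57.37, 54.01 and 53.14 FPKM against 181.47, 105.32 and 191.82 FPKM. Germ cell markers were scarce, at 11.6 to 20.8 FPKM in PTM and 8.0 to 13.8 FPKM in Sertoli over 15 genes, and red blood cell markers summed to 0.2 to 1.7 FPKM. Listed at 0 in all 6 libraries were Lep of the adipocyte markers and 3 of 6 red blood cell markers, and no endothelial, fibroblast, pericyte or germ cell marker. How far these cells enter the differences above was not tested.

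Several programmes gave few or no calls. Of 26 cell cycle genes 0 were called by limma in either direction, with a median of 0.16 (unadjusted, 3 higher and 1 lower), and Mki67, a marker of dividing cells, differed by -0.12. Replicates went opposite ways, with medians of 0.58, -0.52 and 0.44 in replicates 1 to 3, and the genes summed to 1040, 759 and 1010 FPKM in PTM and to 709, 1080 and 759 FPKM in Sertoli. Without replicate 2 of both groups 2 of them were called higher. Glycolysis and lactate export, by which Sertoli cells feed germ cells, had 0 of 22 called and a median of 0.07 (limma, unadjusted, 5 higher and 4 lower). Cell cycle inhibitors and senescence genes had 0 of 16 called and a median of 0.04 (limma, unadjusted, 0 higher and 1 lower). Interferon-stimulated genes had 1 of 23 called lower and 0 higher, with a median of -0.14 (limma, unadjusted, 2 lower and 0 higher), and that call, of Ifi27l2a, was lost without any 1 library other than Sertoli replicate 2 (adjusted p up to 0.105). Within PTM these were high in replicate 2, as with Ifit3, a restrictor of viral RNA, at 43.05, 263.75 and 91.94 FPKM, beside 131.28, 218.93 and 122.58 FPKM in Sertoli. Of the 10 most abundant genes only Acta2 and Tagln were called. Ftl1, the ferritin light chain, came next at 4635.63, 3564.36 and 4202.09 FPKM in PTM against 2251.59, 2257.17 and 2186.04 FPKM in Sertoli, a difference of 0.88 ± 0.11 that lay under the limit of 1.

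Near-absence in a group was more common on the Sertoli side. A mean of at least 10 FPKM in PTM with every Sertoli library under 1 FPKM was found for 11 genes, which were Apoc1, Cxcl5, Cyp11b1, Hp, Klk1b21, Klk1b24, Klk1b27, Lrg1, Ly6d, Rasd1 and Xpnpep2. The reverse held for 2 genes. Sorcs2, a sorting receptor of neurons, read 0.52, 0.77 and 0.53 FPKM in PTM and 13.5, 11.12 and 14.16 FPKM in Sertoli, a fall of 3.11 ± 0.13 (adjusted p = 0.000124). Edn2, endothelin 2, which contracts smooth muscle, read 0.78, 0.21 and 0.36 FPKM against 18.28, 1.05 and 20.18 FPKM and was not called, since Sertoli replicate 2 lay near PTM.

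The remaining extremes belonged to no list. Rarres1, induced by retinoids, read 169.5, 51.74 and 176.11 FPKM in PTM and 1.83, 1.86 and 1.18 FPKM in Sertoli. Stc1, the secreted glycoprotein stanniocalcin, read 62.77, 46.59 and 64.94 FPKM against 1.1, 1.39 and 1.67 FPKM, a rise of 4.62 ± 0.16 (adjusted p = 8.63e-05). Gpx3, a secreted peroxidase, read 207.6, 34.2 and 150.28 FPKM against 3.89, 3.6 and 3.4 FPKM. Aqp2, a water channel best known from kidney, read 111.86, 24.76 and 98.94 FPKM against 0.3, 4.94 and 1.29 FPKM. In Rarres1, Gpx3 and Aqp2 the PTM level of replicate 2 was the lowest of its group, and every PTM library was still above every Sertoli library.

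Among the lowest, Wfdc1, a secreted protease inhibitor of stroma, read 3.85, 2.19 and 4.38 FPKM in PTM and 18.44, 53.41 and 24.71 FPKM in Sertoli. Asb2, a ubiquitin ligase subunit that removes filamins in muscle, read 4.37, 3.14 and 3.3 FPKM against 31.12, 23.15 and 32.16 FPKM, a fall of 2.69 ± 0.17 (adjusted p = 0.000545). Ngef, a guanine nucleotide exchange factor of the ephexin family, read 3.5, 1.88 and 3.23 FPKM against 27.94, 22.12 and 28.41 FPKM. Sytl2, which tethers secretory vesicles, read 2.09, 1.4 and 1.44 FPKM against 29.41, 10.42 and 29.14 FPKM. Nrep and the cytokine gene Il17b completed the 15 lowest genes that passed the naming rule, at log2 differences of -3.13 and -2.91.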

How the data were processed

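RNA from 6 libraries was compared. The deposited table holds FPKM per gene for each library, made by the authors; per the submitters' processing notes, HISAT2 2.0.4, Bowtie2 2.2.5, RSEM 1.2.12 and the mm10 build were used, with roles not given in the sources used here. It also holds the authors' log2 fold changes and q-values for this comparison, with a negative sign where PTM was higher per the deposited FPKM. Symbols turned into dates were restored for 27 genes.

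Genes at 1 FPKM in at least 3 of the 6 libraries were tested with limma 3.58.1 in R 4.3.3 on log2(FPKM + 1), with a mean-variance trend, 4 residual degrees of freedom (2.4 more from the prior) and two-sided p-values adjusted by Benjamini-Hochberg over 11582 genes. FPKM are not counts, so no count test was run, and the added 1 understates changes of low genes. Only these 6 libraries entered the fit, since spread differs between the 7 groups. Depth was inferred from the size of 1 fragment in FPKM, with an assumed 150 bases taken off the transcript length, on which the depth depends. At the depth kept, 90.4 to 94.6% of 345 to 397 low values per library came out whole within 0.2. By chance this is 40% at any 1 fixed depth. The depth kept was the one with the highest such share of those tried, so its chance level is not 40%. The procedure was tested on simulated data.

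The 43 gene lists, the comparison and the naming rule were chosen with earlier results of these data known. The rule names the 15 extreme genes on each side with a mean of at least 10 FPKM, up to 5 called genes per list, fixed markers, the 10 most abundant genes and the 8 largest gaps of each replicate 2 library. Genes named outside it, such as Nnt, Cwc22, Hmgcs1, Dhcr7, Mylk, Ltbp2, Spp1 and Gata1, were chosen after their values were seen, and some named genes are not reported here. Coordinates are those of the deposited table, and 9294 tested genes had a RefSeq promoter.

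The labels give no pairing of libraries. To look for one, each library was set relative to the mean of its group. PTM and Sertoli libraries of equal number then correlated at 0.234, 0.254 and 0.119. PTM replicate 1 and Sertoli replicate 3 correlated at 0.358, and PTM replicate 3 and Sertoli replicate 1 at 0.028. These values do not settle which libraries pair, since replicate 2 stood apart in both groups. The block by replicate number is therefore an alternative fit and not a known pairing. The 17 alternatives covered pseudocount, filter, scaling, block, weights, moderation, pooling and leaving out libraries. Differences in replicate 2 alone were added after seeing the data.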

Additional observations from a re-analysis of the deposited data

How the results depend on the processing

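The genes higher and lower numbered 433 and 329 with the replicate block, of which 379 and 316 were shared with the 422 and 323 reported. That block, which assumes that equal numbers pair, ended 9 calls of named genes. These were the calls of Acat2, Nsdhl, Ptgds, Aard, Mfap5, Dhrs3, Igfbp4, Kdr and Lama4. It gained 1, that of Gbp4. The number higher was 271 with a filter of 5 FPKM, which tests fewer genes, 684 with library weights, whose estimation stopped before it converged, and 678 without replicate 2 of both groups. Of the 422 genes higher, 262 were at least 2-fold higher in replicate 2 alone, which had a part in those calls. Leaving out 1 library gave 254 to 635 genes higher and 250 to 419 lower. Sertoli replicate 2 gave the most when left out and Sertoli replicate 3 the fewest higher. The share of calls that were higher was 56.6%, and 46.7% after quantile normalization and 49.7% after median scaling.

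For cholesterol synthesis, 6 genes were called with no filter on low values, 16 without replicate 2 of both groups, and 1 to 15 on leaving out 1 library. For macrophage markers, 9 were called with the block, 10 with weights, 10 without replicate 2 of both groups, and 3 to 10 on leaving out 1 library. For striated muscle genes, 5 were called lower with a pseudocount of 0.1, of 0.01 or after quantile normalization. The cause was not tested. No called gene named here reversed its sign under these alternatives. Of 143 named genes that were called, 103 kept the call whichever library was left out. With 3 libraries a group and FPKM only, genes near the filter and differences near 2-fold are the least certain.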

Other observations

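Genes called higher in PTM had a median transcript length of 2264 bases and genes called lower 2996 bases, beside 2855 bases over all tested genes. The X chromosome held 3.55% of the genes higher and 3.1% of those lower, beside 3.38% of all tested genes.

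Epithelial and rete markers, such as would come from the ducts that drain the testis, gave 0 calls of 6 by limma with a median of 0.48, and at an unadjusted p under 0.05, 2 were higher and 0 lower. Their sum was 27.3, 27.2 and 22.8 FPKM in PTM and 8.84, 29.5 and 12.6 FPKM in Sertoli, with Sertoli replicate 2 at the level of PTM. Immediate early genes, which respond within minutes to handling and serum, gave 1 call lower and 0 higher of 21, with a median of -0.44 (unadjusted, 9 lower and 3 higher). The call was lost without any 1 library other than Sertoli replicate 2, and 6 genes were called lower without Sertoli replicate 2. Cwc22, a splicing factor, stepped between replicates like Ifi202b, at 71.54, 114.71 and 92.71 FPKM in PTM and 14.13, 114.09 and 30.99 FPKM in Sertoli.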
